A study of Mus musculus with 104 samples.

Results

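The junctions described here join a fixed DNA break on chromosome 7, 12 or 15 of mouse cells to a second place on the same chromosome that lies more than 10 kb and at most 5 Mb away. They were selected by position alone, as reads whose junction chromosome equals the bait chromosome and whose distance from the bait break falls in that window, with each read counted once per pool. The selection holds 149587 of 2018794 junctions, or 7.41% of all. The breaks lie at chr7:80451956, chr12:13000729 and chr15:86848129 in mm9, and their windows hold 45872, 47514 and 56201 junctions. The other junctions lie within 10 kb of the break (66.3%), farther along the bait chromosome (3.83%) or on other chromosomes (22.5%).

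The assay, HTGTS (high-throughput genome-wide translocation sequencing), amplifies DNA from a primer next to a fixed bait break and reads across the place where the bait end was joined to another broken end, the prey. It was run on lines 1 and 2 of embryonic stem cells (ESC) and on neural progenitor cells (NPC) differentiated from each in culture. All carry the genotype Xrcc4-/- p53-/- on the C57BL6/129SVE strain, controls included, so no group has the end-joining ligase partner Xrcc4 or the tumour suppressor p53. Each cell type, line and bait was treated with aphidicolin (APH), an inhibitor of replicative DNA polymerases, or with DMSO. These 24 combinations are called pools below, since each deposited table holds 1 combination whose labels name 4 to 8 experiments, and each of the 4 conditions (ESC DMSO, ESC APH, NPC DMSO, NPC APH) has 6 pools, 1 per line and bait. Pools held 32896 to 211923 junctions, of which 1034 to 21244 lie in the window, and 104 experiments are labelled. Cell identity cannot be checked from genomic DNA, and nothing in the labels says that the experiments of a pool came from separate cultures. The p-values below thus measure the spread between pools, which may in part be technical.

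A double-strand break is most often rejoined in place or joined to another break nearby on the same chromosome, since broken ends that are close in space meet often. Without Xrcc4, classical end joining does not work, and ends are joined by alternative routes that often use a few bases shared by both ends (microhomology). Aphidicolin slows replication forks, and forks that stall can break. The direction in which a prey is read tells which of its ends was joined. A prey on the side that the bait read points to (the forward side) and on the same strand leaves out the DNA between the breaks, as a deletion does, while one on the opposite strand turns it around, as an inversion does. A prey on the other side (the rear side) is of the type of an excised circle when on the same strand. On the opposite strand it too is of the type of an inversion of the DNA between the breaks. On either side, an opposite-strand joint to another copy of the chromosome would give a dicentric chromosome or its acentric partner. The reads do not tell these apart from inversions. The forward side is toward higher coordinates for the baits on chromosomes 12 and 15 and toward lower coordinates for that on chromosome 7.

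The most frequent bait sequences, taken from the deposited reads and given as read 5′ to 3′ from the primer toward the break, are shown because all distances and sides below are counted from them. Their places in mm9 are chr7:80451956-80452046 on the minus strand, chr12:13000729-13000857 on the plus strand and chr15:86848129-86848205 on the plus strand.
Bait 7: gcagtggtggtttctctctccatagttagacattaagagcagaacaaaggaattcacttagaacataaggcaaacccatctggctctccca
Bait 12: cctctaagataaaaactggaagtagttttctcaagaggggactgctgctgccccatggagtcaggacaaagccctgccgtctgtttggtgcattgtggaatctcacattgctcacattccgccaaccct
Bait 15: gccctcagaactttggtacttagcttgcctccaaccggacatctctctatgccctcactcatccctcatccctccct
For bait 7 the break position is the far end of this sequence, and for baits 12 and 15 it is the primer end, so their far ends lie 128 and 76 bp inside it. Counting from the far end changes the membership of 511 junctions, 320 at bait 12 and 191 at bait 15.

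One junction of the leading class of each cell type is shown per bait, with its distance near the median of that class. The bait end is in lower case and the prey in capitals. In ESC these are forward, same-strand joints at chr7:80429635-80429674, chr12:13021590-13021629 and chr15:86868415-86868454. In NPC they are rear, opposite-strand joints at chr7:80509345-80509384, chr12:12950476-12950515 and chr15:86732548-86732587.
Bait 7 in ESC, 22.3 kb forward: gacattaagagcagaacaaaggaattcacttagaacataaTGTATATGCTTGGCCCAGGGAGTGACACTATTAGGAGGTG
Bait 7 in NPC, 57.4 kb rear: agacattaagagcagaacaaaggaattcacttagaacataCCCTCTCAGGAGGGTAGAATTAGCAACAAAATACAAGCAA
Bait 12 in ESC, 20.9 kb forward: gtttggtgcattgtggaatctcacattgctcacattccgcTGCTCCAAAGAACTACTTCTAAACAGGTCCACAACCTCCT
Bait 12 in NPC, 50.2 kb rear: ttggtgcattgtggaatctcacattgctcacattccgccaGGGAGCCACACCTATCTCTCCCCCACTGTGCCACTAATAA
Bait 15 in ESC, 20.3 kb forward: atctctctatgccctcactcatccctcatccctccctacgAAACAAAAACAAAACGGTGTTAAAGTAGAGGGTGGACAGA
Bait 15 in NPC, 116 kb rear: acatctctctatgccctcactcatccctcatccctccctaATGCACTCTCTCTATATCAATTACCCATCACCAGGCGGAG
A joint with microhomology is shown for comparison, from NPC with bait 15, with the prey at chr15:86732566-86732605. Here only the 2 bases that fit both the bait and the prey are in capitals.
Bait 15 in NPC, shared bases: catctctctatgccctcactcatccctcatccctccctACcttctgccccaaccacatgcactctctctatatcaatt

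Several libraries share joints, and this bears on the results that follow. A joint was counted as shared when position, strand and the far end of the bait alignment were identical, using only joints over 100 kb from the break. Among 1073 pairs of experiments from different pools of a bait, with 3 pools whose letters did not match the labels taken whole, the median share was 0% and the 95th percentile 2.29% of the smaller library. In 12 pairs it was at least 30%, with at least 20 joints in common. Most concern NPC with bait 15: of the joints of line 2, 77.1% of 6095 under DMSO and 83.0% of 7743 under APH were also found in line 1, although no sequencing run was common to both lines by the read names. The match crosses the labelled treatments, since line 2 DMSO experiment A shared 80.8% of its joints with line 1 APH experiment A, and line 2 DMSO experiment D 74.2% with line 1 APH experiment C. Line 2 DMSO experiments B and C shared 71.1% and 79.4% with the line 1 DMSO experiments of the same letters. Conversely, the joints of line 1 DMSO experiments A and D were found at 63.7% and 61.4% in the line 2 APH pool, next to 84.5% and 87.0% of those of line 1 APH experiments B and D.

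**Figure D1:**
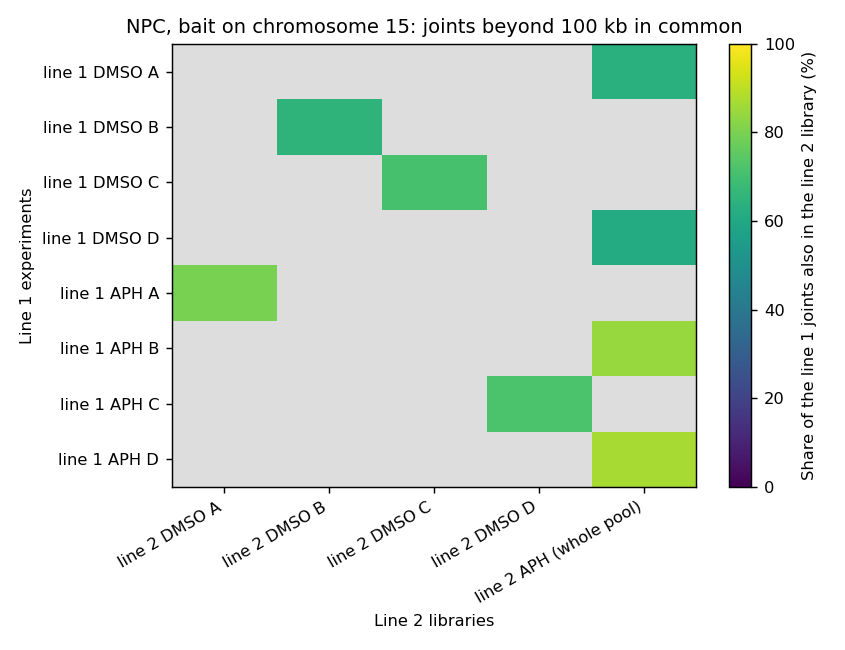
Share, in percent (color), of the joints over 100 kb from the break of each NPC line 1 bait 15 experiment (rows) that are also found in each line 2 library (columns), with the line 2 APH pool shown whole. Cells in grey are under 5%, and line 1 APH experiments A and C share 79.8% and 71.7% of their joints with line 2 DMSO experiments A and D.

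The window share, defined as window junctions in percent of all junctions over 10 kb from the break, follows the same split within the pool labelled NPC line 2 bait 15 DMSO. It was 22.2% in experiment A and 18.4% in D, against 9.11% in B and 8.96% in C. In line 1 with the same bait it was 18.4 to 21.9% in the 4 APH experiments and 8.72 to 10.1% in the 4 DMSO experiments. Of the pool labelled line 2 DMSO, D thus lies in the range of the line 1 APH experiments and A just above it. Smaller cases joined other labels. ESC line 1 bait 12 DMSO experiment A had 28 of 43 joints (65.1%) in common with an NPC pool of that line and bait. ESC line 2 bait 15 DMSO experiment A had 91 of 173 (52.6%) in common with NPC line 2 bait 15 APH, and NPC line 1 bait 12 APH experiment C had 210 of 403 (52.1%) in common with line 2. APH differences in window share, differences in decay slope and most of those in bait-strand share are therefore given with all libraries and without these. So are some stretches and bins. Left out are both NPC line 2 bait 15 pools and these 3 experiments, which leaves 5 line and bait pairs. Other results, among them median distance, side, the classes of side and strand, and microhomology, are given with all libraries only. Their counts of pairs include line 2 with bait 15, where most NPC joints are also found in line 1. That pair is thus not independent of the line 1 pair with the same bait.

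Within a pool, experiments of ESC also had joints in common: 10 of 60 ESC pairs shared 32.4 to 61.7%, in 7 pools, while the highest of 63 NPC pairs was 5.44%. Distinct positions were correspondingly fewer in ESC windows, with 78.6 distinct positions and strands per 100 junctions under DMSO and 75.7 under APH, against 94.1 and 93.0 in NPC. The reads carry no molecular identifiers, so these repeats cannot be told apart from copies of 1 joining event, and intervals cover counting error only.

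In both cell types a larger share of distant junctions lay in the window under APH than under DMSO. In ESC, the window share under DMSO was 31.5% and 36.3% for bait 7 (lines 1 and 2), 27.2% and 39.2% for bait 12 and 15.2% and 14.4% for bait 15. Under APH it was 34.7% and 36.7%, 32.2% and 42.9%, and 18.6% and 14.9%. The APH value was the higher in 6 of 6 pairs, by 2.71 percentage points on average, from 0.409 to 4.96, which is small against the spread between baits (27.3 ± 10.5% under DMSO and 29.999 ± 10.9% under APH, SD, n = 6 pools).

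In NPC, the window share under DMSO was 18.7% and 19.0% for bait 7, 15.1% and 15.5% for bait 12 and 9.13% and 16.6% for bait 15. Under APH it was 28.9% and 33.9%, 23.4% and 26.1%, and 19.3% and 16.8%. The APH value was the higher in 6 of 6 pairs, by 9.05 points on average (15.7 ± 3.59% against 24.7 ± 6.28%, SD, n = 6), and the smallest difference, 0.176 points, was that of line 2 with bait 15, where joints are shared between treatments. Without the libraries that share joints the mean difference was 10.8 points in NPC and 3.41 in ESC, higher in 5 of 5 pairs each. The exact sign-flip test over 6 pairs, two-sided, gave p = 0.0312 in both cell types, the smallest that 6 pairs allow. Adjusted over the 20 tests of window share, decay, side and strand it was 0.0893, and no test of the 20 passed 0.05, so the differences below are given as values and as counts of pairs.

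The APH difference was larger in NPC than in ESC by 6.34 points, in 5 of 6 pairs (exact p = 0.0625). Without experiments A and D of NPC line 2 bait 15 DMSO it was 7.60 points. No p is given for that value, because A and D were left out after their joints and window shares had been seen. The remaining libraries of that line and bait also share most of their joints with the other line. Without all libraries that share joints the difference was 7.38 points, larger in NPC in 5 of 5 pairs (exact p = 0.0625, the smallest that 5 pairs allow). In ESC the baits differed more than the treatments did, with bait 15 lowest under both.

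**Figure D2:**
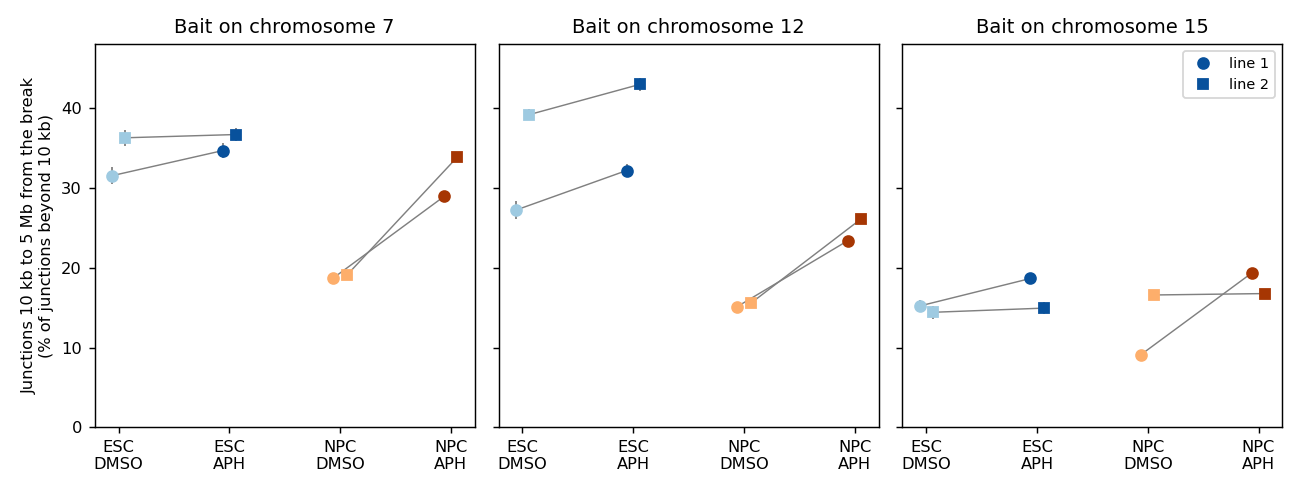
Window share in percent of the junctions over 10 kb from the break (vertical axis) in each of the 24 pools, by condition and bait. Points are pools of line 1 and line 2, and bars are 95% Clopper-Pearson intervals, which cover counting error only. In every pair the APH pool lies above the DMSO pool, by 0.176 to 14.8 points in NPC and 0.409 to 4.96 in ESC.

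Which cell type had the larger window share depends on the denominator. Of the junctions over 10 kb from the break, NPC had a smaller share in the window than ESC, by 11.6 points under DMSO (lower in 5 of 6 pairs) and 5.27 points under APH (lower in 4 of 6). Of all junctions, the window held 4.72 ± 1.68% in ESC DMSO, 5.91 ± 2.02% in ESC APH, 4.83 ± 1.498% in NPC DMSO and 11.6 ± 3.39% in NPC APH (SD, n = 6 pools each). On that scale NPC exceeded ESC by 0.107 points under DMSO, with 3 of 6 pairs higher, and by 5.69 points under APH, with 6 of 6 higher. The zone within 10 kb held 82.1% and 79.9% of all junctions in ESC under DMSO and APH but 68.4% and 52.9% in NPC, and other chromosomes held 11.3% and 11.9% against 23.2% and 29.5%. A share of junctions counts joined ends, and more breaks at a place cannot be told apart from more joining of the same breaks to the bait.

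Junctions thinned out with distance in every pool, and over the window as a whole more steeply in ESC. The decay slope, fitted to the log10 density of junctions per base against log10 distance over 8 distance classes, was -1.4995 ± 0.197 in ESC DMSO, -1.51 ± 0.214 in ESC APH, -1.24 ± 0.0858 in NPC DMSO and -1.21 ± 0.0784 in NPC APH (SD, n = 6 pools). NPC slopes were flatter than ESC slopes of the same line and bait in 6 of 6 pairs, by 0.259 under DMSO and 0.306 under APH (exact sign-flip p = 0.0312 each, adjusted 0.0893). Without the libraries that share joints the differences were 0.285 and 0.356 over 5 pairs. The APH pools differed from the DMSO pools by -0.0140 in ESC and 0.0334 in NPC, in mixed directions. Without the libraries that share joints the ESC difference was -0.0369, steeper under APH in 5 of 5 pairs (-0.0536 to -0.0232), and that in NPC was 0.0338, flatter in 4 of 5.

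The flatter decay in NPC shows as a larger middle range. In ESC, 39.98% of window junctions under DMSO and 39.5% under APH lay 10 to 20 kb from the break and a further 34.1% and 32.8% at 20 to 50 kb, whereas in NPC these classes held 26.1% and 20.7%, and 17.3% and 15.7%. Between 100 and 200 kb lay 2.27% and 2.65% in ESC against 10.8% and 12.9% in NPC. Between 200 and 500 kb the shares were 2.56% and 3.13% against 10.6% and 13.6%, and between 500 and 1000 kb 3.29% and 3.32% against 8.58% and 11.9%. Beyond 1 Mb the cell types came closer, with 2.85% and 3.27% against 5.15% and 5.76% at 1 to 2 Mb and 6.22% and 5.35% against 9.40% and 7.34% at 2 to 5 Mb. The gap between the cell types was widest, as a ratio, from 100 to 500 kb. From the class at 200 to 500 kb to that at 2 to 5 Mb the mean share rose in ESC and fell in NPC, under both treatments. Beyond 200 kb the density thus fell more steeply in NPC, and the slope over the whole window does not show this.

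**Figure D3:**
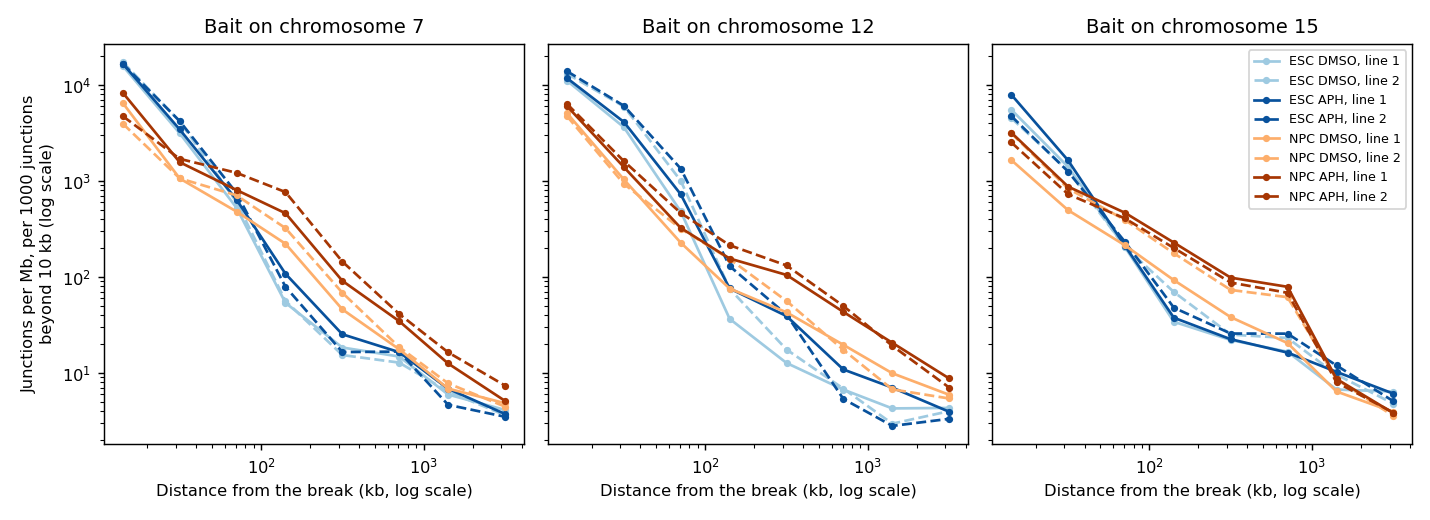
Window junctions per Mb, per 1000 junctions of the pool beyond 10 kb (vertical axis, log scale) against distance from the bait break in kb (horizontal axis, log scale), by bait and condition, with line 1 solid and line 2 dashed. ESC curves drop more steeply than NPC curves up to 200 kb, where 2.27% (DMSO) to 2.65% (APH) of ESC and 10.8% to 12.9% of NPC window junctions lie at 100 to 200 kb.

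The median distance of a window junction summarises this by pool. In ESC under DMSO it was 19.98 and 20.9 kb for bait 7 (lines 1 and 2), 23.6 and 27.9 kb for bait 12 and 27.1 and 34.4 kb for bait 15, and under APH 20.8 and 21.9, 27.5 and 30.4, and 23.0 and 36.2 kb. In NPC under DMSO it was 45.0 and 78.3 kb, 38.4 and 53.9 kb, and 128 and 130 kb, and under APH 65.6 and 109, 92.9 and 87.8, and 159 and 175 kb. No NPC pool lay within the ESC range of 19.98 to 36.2 kb, but single NPC experiments did. In NPC line 1 bait 12 DMSO, experiments A, B and C had 35.7, 29.5 and 35.7 kb, and only D, with 182 kb, lay above. Experiment C of NPC line 1 bait 7 DMSO had 34.7 kb. APH pools had the longer median in 6 of 6 NPC pairs, by 36.0 kb on average, and in 5 of 6 ESC pairs, by 1.02 kb.

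In line 1 with bait 15, 1 sequencing run held all 4 conditions, and within it the cell types differed in the direction of the means over pools. The window share was 15.9% and 20.4% in ESC under DMSO and APH and 9.13% and 19.3% in NPC. Under APH the whole pools of that line and bait had the other order, with 18.6% in ESC and 19.3% in NPC. Median distances were 28.4 and 23.4 kb in ESC and 128 and 159 kb in NPC. For the other line and bait pairs no run with enough window junctions held both cell types. There, differences between cell types cannot be told apart from differences between runs. In 10 of 12 combinations of cell type, line and bait, the read names of both treatments came from the same runs.

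The side of the joints also differed between the cell types. Forward joints made up 57.9% of window junctions in ESC DMSO, 58.9% in ESC APH, 37.0% in NPC DMSO and 24.3% in NPC APH. NPC were lower in 6 of 6 pairs under both treatments, by 20.9 points under DMSO and 34.6 under APH, and APH pools were lower than DMSO pools in 6 of 6 NPC pairs, by 12.7 points. The planned measure of side, the share toward higher coordinates, mixes baits that read in opposite directions. Its differences were 1.41 and -2.42 points for APH in ESC and NPC and -4.71 and -8.54 points for NPC against ESC under DMSO and APH, with p of 0.0625 to 0.719 in the exact test.

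The share of window junctions on the bait strand was 65.0 ± 5.47% in ESC DMSO and 61.6 ± 7.66% in ESC APH, and 46.2 ± 7.77% in NPC DMSO and 37.0 ± 6.80% in NPC APH (SD, n = 6 pools). NPC lay below ESC in 6 of 6 pairs, by 18.8 points under DMSO and 24.6 under APH, and NPC APH lay below NPC DMSO in 6 of 6, by 9.21 points on average (exact p = 0.0312 each, adjusted 0.0893). In ESC the APH difference was -3.47 points, lower in 4 of 6 pairs (exact p = 0.125), and the difference between the APH effects was -5.74 points (exact p = 0.0938). Without the libraries that share joints, NPC lay below ESC by 19.2 and 27.0 points, and the APH difference in NPC was -10.7 points.

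Of the 4 classes, forward same-strand joints had the highest mean in ESC and rear opposite-strand joints in NPC, with exceptions by pool. In ESC line 2 with bait 15, rear opposite-strand joints were the larger class (38.2% against 31.97% under APH, 33.8% against 33.6% under DMSO), and in NPC line 2 with bait 12 under DMSO forward same-strand joints were (39.2% against 33.3%). NPC line 1 with bait 12 under DMSO had nearly equal shares, at 34.6% and 34.3%. Forward same-strand joints, the deletion type, made up 48.6% and 49.4% in ESC under DMSO and APH, and 27.6% and 17.1% in NPC. By pool they ranged from 31.97 to 62.4% in ESC and from 10.0 to 39.2% in NPC, and the ranges overlap at the ESC pools of bait 15 in line 2 and the NPC DMSO pools of bait 12. Rear opposite-strand joints made up 25.6% and 29.0% in ESC and 44.4% and 55.8% in NPC. Their share was the larger in NPC in 6 of 6 pairs, by 18.8 points under DMSO and 26.9 under APH. Under APH they were the larger in 6 of 6 pairs of each cell type, by 3.34 points in ESC and 11.4 in NPC.

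The other classes differed less between cell types. Forward opposite-strand joints were 9.36%, 9.49%, 9.42% and 7.19% in ESC DMSO, ESC APH, NPC DMSO and NPC APH. Rear same-strand joints, the circle type, were 16.5% and 12.1% in ESC and 18.6% and 19.9% in NPC, and in ESC the APH value was the lower in 6 of 6 pairs, by 4.33 points on average.

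These shares sum to 100%, so the classes were also counted against other totals, which are themselves affected by the zone within 10 kb or by the rest of the genome. Per 1000 junctions of the pool, rear opposite-strand window joints numbered 11.6 in ESC DMSO, 16.2 in ESC APH, 22.2 in NPC DMSO and 66.7 in NPC APH. Per 1000 junctions outside both the window and the zone within 10 kb, they numbered 97.2, 124, 84.7 and 193. Under APH they were the more frequent in 6 of 6 pairs of each cell type on both scales, with median ratios to DMSO of 1.39 and 1.26 in ESC and of 3.57 and 2.51 in NPC. The order of the cell types under DMSO depended on the scale, since NPC were higher in 5 of 6 pairs on the first and lower in 4 of 6 on the second. Forward same-strand joints numbered 24.02, 31.0, 12.6 and 18.9 per 1000 of the pool and 207, 243, 51.7 and 55.8 on the second scale. Between APH and DMSO in NPC they were the more frequent in 5 of 6 pairs on the first scale (median ratio 1.54) and in 3 of 6 on the second (1.03).

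**Figure D4:**
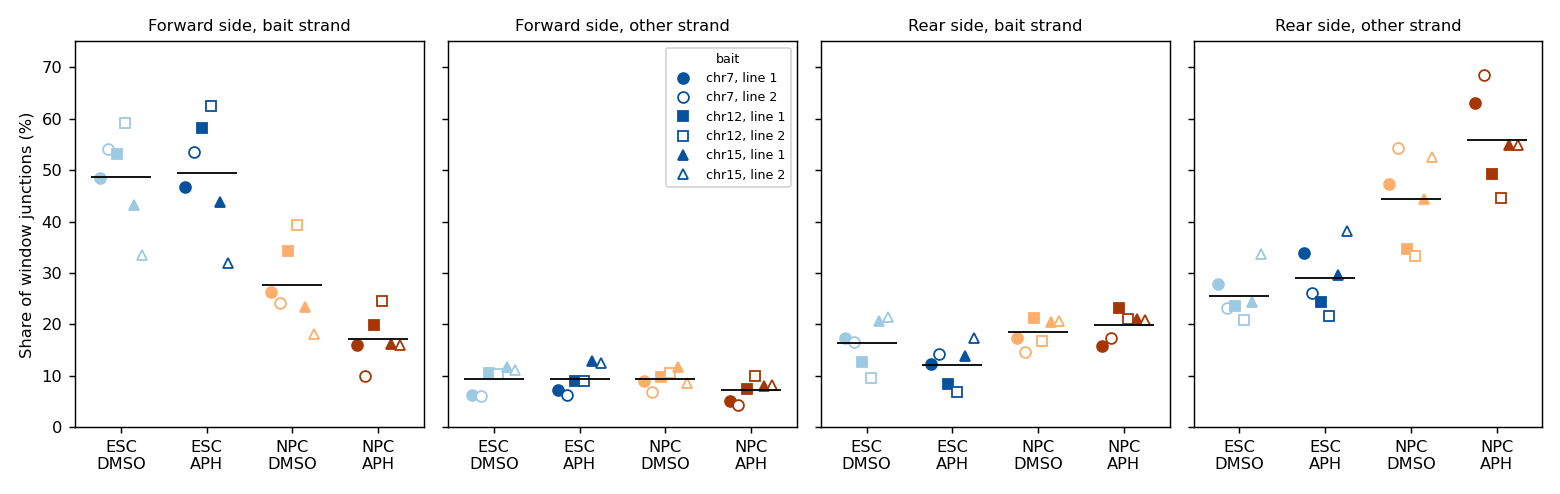
Share of window junctions in percent (vertical axis) in each of the 4 classes of side and strand, by condition. Bars are means of 6 pools, and points are pools, filled for line 1 and open for line 2. Forward same-strand joints had the highest mean in ESC (48.6% under DMSO) and rear opposite-strand joints in NPC (55.8% under APH).

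Orientation also varied with distance. In ESC under DMSO, 70.0% of joints at 20 to 50 kb were on the bait strand, against 51.1% at 2 to 5 Mb, and on other chromosomes 53.6% were. In NPC under APH the share was 28.3% at 50 to 100 kb and 58.2% at 2 to 5 Mb, against 50.1% on other chromosomes. Rear opposite-strand joints in NPC APH made up 60.2% at 10 to 20 kb, 62.6% at 20 to 50, 66.5% at 50 to 100, 61.7% at 100 to 200, 53.1% at 200 to 500, 42.0% at 500 to 1000 kb, 36.6% at 1 to 2 Mb and 28.7% at 2 to 5 Mb. In NPC APH the share of this class was thus highest at 50 to 100 kb and lower at each step beyond.

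The classes reached different distances. In NPC APH the median distance was 490 kb for rear same-strand joints and 294 kb for forward opposite-strand joints, against 82.5 kb for rear opposite-strand and 50.7 kb for forward same-strand joints. In ESC DMSO the medians were 38.5, 84.2, 28.6 and 22.5 kb in that order. These are means over pools. Forward same-strand joints had the shortest median in each NPC pool and in the ESC pools of baits 12 and 15, while for bait 7 in ESC DMSO rear opposite-strand joints did, with 17.3 and 17.4 kb against 22.3 and 22.6 kb.

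Within 10 kb of the break, which the window leaves out, forward same-strand joints were the leading class in NPC too, with 65.6% under DMSO and 51.4% under APH, against 77.7% and 76.3% in ESC. There, 81.3% of junctions in ESC DMSO and 80.0% in ESC APH were on the bait strand, against 69.3% and 55.7% in NPC, and rear opposite-strand joints made up 9.82%, 11.1%, 20.1% and 34.6%. Beyond 5 Mb on the bait chromosome the bait-strand shares were 49.4 to 53.3% in all conditions, so the strand bias of the window was not seen there.

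At the joint itself, microhomology was the usual form. The joint with 2 shared bases printed above is an example, while the other printed joints are direct. Joints with shared bases made up 74.2% and 73.5% of window junctions in ESC under DMSO and APH and 79.2% and 80.1% in NPC, and NPC were higher in 6 of 6 pairs under both treatments, by 4.99 and 6.58 points. Joints with inserted bases made up 19.5% and 20.4% in ESC and 14.7% and 14.1% in NPC, lower in NPC in 6 of 6 pairs, and the remainder were direct. The number of shared bases averaged 3.05 to 3.09 in all 4 conditions. On other chromosomes microhomology was less frequent and the gap between the cell types larger, with 65.1% and 62.7% in ESC and 76.1% and 75.7% in NPC.

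Beyond 100 kb the profiles of NPC differed between the baits, in part as a continued decay from the break and in part as local maxima. To describe them, junctions were counted in stretches of 200 to 600 kb, per 1000 junctions of the pool beyond 10 kb; the stretches were chosen after the profile had been seen, so their values carry no test. Genes are named where reads in the window held 30 bases found in a single gene's RefSeq promoter (GRCm38.p6), and distances are those of the reads in mm9. In all, 61 genes matched and 25 lay among other matched neighbours with a fitting strand; those named here were chosen after their places had been seen.

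For bait 7 the main stretch lay on the rear side at 100 to 600 kb. It held 5.23 and 6.30 junctions per 1000 in ESC DMSO (lines 1 and 2), 14.0 and 7.76 in ESC APH, 26.9 and 42.1 in NPC DMSO and 64.6 and 111 in NPC APH, so no NPC pool overlapped an ESC pool. Most of its NPC junctions lay in the bin nearest the break, at 100 to 200 kb, as in a decay. That bin held 1757 of 2854 and 2330 of 3669 under APH, and 295 of 482 and 670 of 1104 under DMSO. The forward side over the same distance held 6.39 and 4.61, 5.24 and 5.76, 11.7 and 12.6, and 12.5 and 13.5, with less separation between treatments. In the rear stretch 15.9 to 17.0% of NPC joints were on the bait strand. The rest were rear opposite-strand joints, as is the NPC joint of bait 7 printed above. In each of the 4 NPC pools the highest bin beyond 300 kb on that side was at 300 to 400 kb, the nearest bin past that limit, so it marks no separate maximum. The starts of A730056A06Rik at 68.8 kb, of Chaserr, a long noncoding RNA gene, at 251 kb and of Fam174b at 433 kb lie on that side.

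Farther out on the rear side of bait 7, at 600 to 1200 kb, the stretch held 5.67 and 4.83 per 1000 in ESC DMSO, 8.66 and 6.72 in ESC APH, 4.80 and 5.84 in NPC DMSO and 14.0 and 18.9 in NPC APH. There the DMSO pools of both cell types overlapped, which depends on the narrow site at 907 kb described below. That site held 16 of 39 and 22 of 43 junctions of the stretch in ESC DMSO (lines 1 and 2). In NPC DMSO it held 8 of 86 and 6 of 153. The highest bin of all 4 ESC pools beyond 300 kb, at 900 to 1000 kb, contains this site.

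For bait 12 both sides had a stretch, with different orders of the conditions. On the rear side at 300 to 800 kb, the values were 2.90 and 3.76 per 1000 in ESC DMSO, 3.52 and 1.81 in ESC APH, 11.03 and 10.3 in NPC DMSO and 27.4 and 30.5 in NPC APH. On the rear side at 100 to 300 kb they were 2.29 and 4.23, 3.83 and 5.61, 7.92 and 10.9, and 19.7 and 20.9. On the forward side at 100 to 600 kb they were 4.42 and 7.52 in ESC DMSO, 15.6 and 19.3 in ESC APH, 7.92 and 16.5 in NPC DMSO and 16.1 and 29.0 in NPC APH. In the forward stretch ESC APH overlapped NPC, whereas in both rear stretches every NPC pool lay above every ESC pool. The forward stretch holds the starts of Ddx1, a gene for a DEAD-box RNA helicase, at 255 kb and of Nbas, whose protein acts in transport between Golgi and endoplasmic reticulum, at 275 kb. They point in opposite directions, Ddx1 on the minus and Nbas on the plus strand. Cyria starts at 732 kb on the rear side. Without the libraries that share joints, ESC DMSO line 1 had 4.30 on the rear side at 300 to 800 kb and 5.37 in the forward stretch, and NPC APH line 1 had 27.6 and 15.1.

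For bait 15 the rear side first declined and then had a local maximum at 500 to 600 kb. In NPC APH line 1 the bins at 100 to 200 and 200 to 300 kb held 1998 and 1056 junctions. Those at 400 to 500 and 500 to 600 kb held 838 and 1140. At 100 to 400 kb the values were 5.76 and 9.20 per 1000 in ESC DMSO, 5.64 and 8.38 in ESC APH, 13.2 and 26.5 in NPC DMSO and 34.9 and 30.8 in NPC APH. At 400 to 800 kb they were 3.30 and 9.48, 4.70 and 8.92, 7.84 and 26.6, and 34.4 and 28.9. The value of 26.6 is that of NPC line 2 DMSO, the pool that shares joints with line 1 APH, and line 1 alone compared 7.84 under DMSO with 34.4 under APH. Without ESC line 2 DMSO experiment A, which shares joints with NPC, ESC DMSO line 2 had 4.96 at 400 to 800 kb and 6.37 at 100 to 400 kb. The bin at 500 to 600 kb on the rear side was the highest beyond 300 kb in each of the 4 NPC pools, with 10.4 and 8.82 per 1000 under APH and 2.38 and 7.74 under DMSO.

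Past these rear stretches of bait 15, at 800 to 1200 kb, values were lower and nearer to each other, with 2.77 and 4.32 in ESC DMSO, 3.60 and 4.35 in ESC APH, 2.98 and 6.22 in NPC DMSO and 7.78 and 7.06 in NPC APH. The starts of Tbc1d22a on the plus strand, a gene for a protein with a Rab GTPase-activating domain, at 804 kb and of Cerk, the ceramide kinase gene, on the minus strand at 831 kb lie at the boundary, and that of Gramd4 at 959 kb lies beyond it. On the forward side at 400 to 800 kb the values were 2.77 and 1.81, 1.88 and 1.85, 2.65 and 5.71, and 7.41 and 6.69, and Tafa5, which encodes a small secreted protein, starts at 608 kb. A930027H12Rik starts at 79.7 kb on the forward side. Strand varied along the rear side of bait 15 in NPC APH, with 24.1% of joints on the bait strand at 100 to 200 kb, 45.0% and 46.4% at 400 to 500 and 500 to 600 kb, and 20.9% at 700 to 800 kb.

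**Figure D5:**
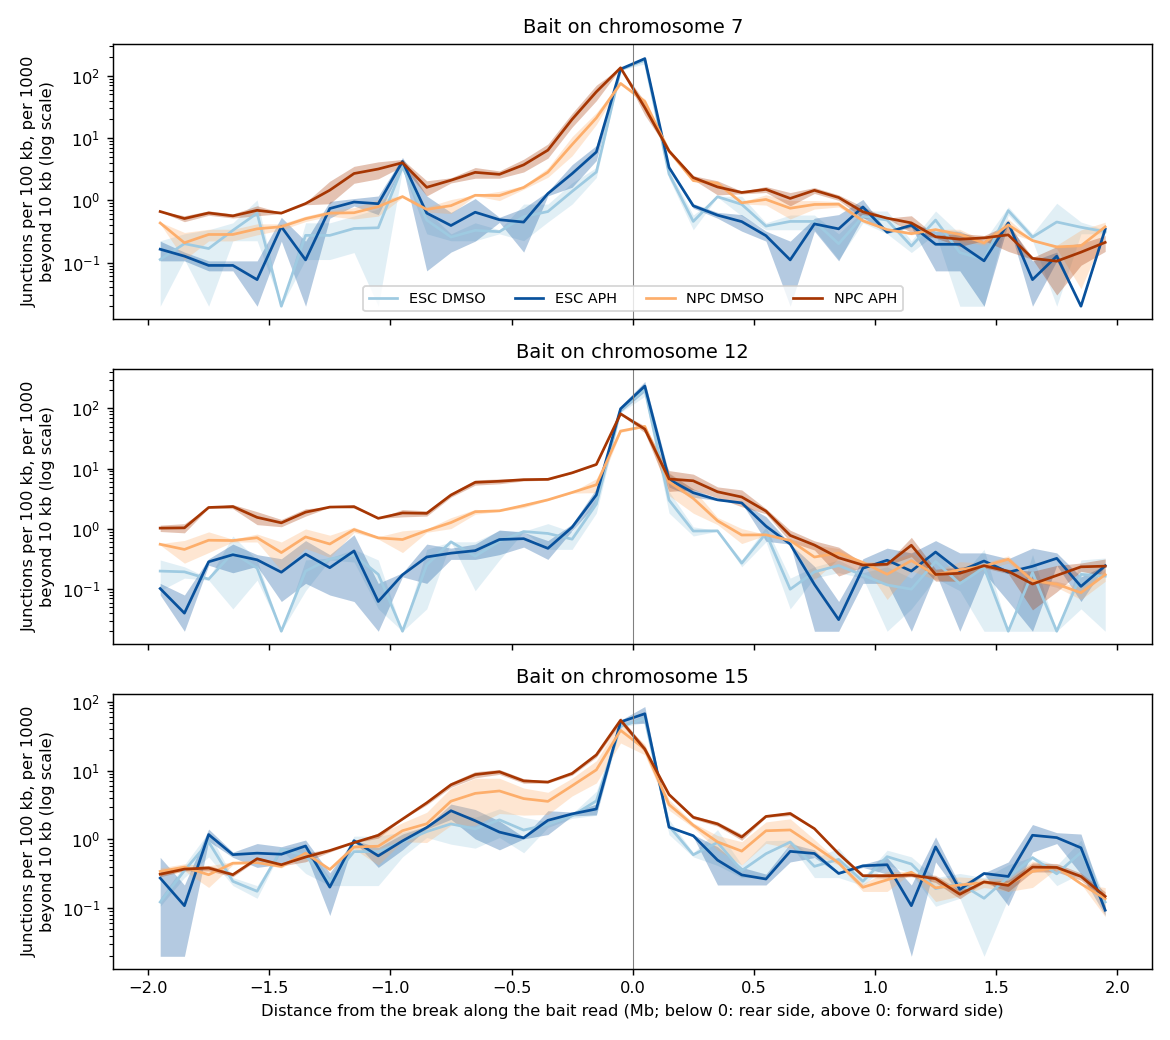
Junctions per 1000 junctions of the pool beyond 10 kb (vertical axis, log scale) in 100 kb bins along the bait read, in Mb from the break (horizontal axis, rear side below 0), for each bait and condition. Lines are the mean of both cell lines, bands span the 2 lines, and values below 0.02 are drawn at 0.02. On the rear side of bait 7 at 100 to 600 kb, NPC pools (26.9 to 111 per 1000 in sum) lie above ESC pools (5.23 to 14.0).

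Single 100 kb bins were put through edgeR's quasi-likelihood test on the 8 pools of each bait, with Benjamini-Hochberg adjustment over 469 bins of the genome that passed the filter on low counts, of which 138 of 300 lie in the windows (33, 45 and 60 for baits 7, 12 and 15). Library sizes were scaled by TMM, so a change here is relative to the other tested bins of that bait. Between cell types under APH, 39 window bins were higher and 7 lower in NPC, 33.3% of those tested, beside 34.1% called over the genome (18.1% higher and 16% lower). The count is near the background, and the window bins were mostly higher where the other bins were split: the median log2 difference was 1.01 in the windows and -0.52 in the rest of the genome. Under DMSO 21 window bins were higher and 3 lower, or 17.4% beside 14.9% over the genome (10.7% higher and 4.26% lower), with medians of 0.88 and -0.14. Bait 15 holds 21 of the 46 bins called under APH and 13 of the 24 under DMSO. There the NPC lines share most of their joints, so they are not separate replicates and the adjusted p may be too small.

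The higher bins lay mostly on the rear side, where most of the tested window bins lay too (92 of 138). Under APH, 31 of 92 tested rear bins were higher in NPC and 1 lower, against 8 higher and 6 lower of 46 forward bins. Under DMSO 16 of 92 rear bins were higher and 1 lower, against 5 and 2 of 46 forward bins. The largest differences were at bait 15. The bin chr15:86248129-86348128, at 500 to 600 kb on the rear side, held 1140 and 708 junctions in NPC APH and 9 and 17 in ESC APH (lines 1 and 2), a log2 difference of 4.38 ± 0.70 (SE, edgeR adjusted p = 4.77e-08). It was 4.37 without the libraries that share joints (adjusted p = 0.000197). The bins chr15:86648129-86748128, chr15:86348129-86448128 and chr15:86148129-86248128 of the same side rose by 3.92, 4.02 and 3.77 (log2) in the same test. On the forward side chr15:87348130-87448129 held 244 and 168 junctions in NPC APH but only 4 and 2 in ESC APH, so it passed the filter through NPC and its fold is poorly determined. Bins with few ESC junctions could in general be tested only where NPC were high, so the counts of higher bins describe the tested bins alone.

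Under DMSO the first of the higher bins was chr7:80551957-80651956, at 100 to 200 kb on the rear side of bait 7. It held 295 and 670 junctions in NPC and 16 and 30 in ESC, a log2 difference of 3.10 ± 0.54 (SE, edgeR adjusted p = 0.000572). At bait 15 the bin at 100 to 200 kb on the rear side held 264 and 976 junctions in NPC and 21 and 36 in ESC, a difference of 2.64 (adjusted p = 0.000712). The bins at 200 to 300, 400 to 500 and 600 to 700 kb had differences of 2.55, 2.68 and 2.70. With the total beyond 10 kb as library size and no TMM these 4 bins of bait 15 were still higher, by 1.42 to 1.58, and did not pass (adjusted p = 0.0706 to 0.0956).

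Of the 7 bins called lower under APH, 6 were at bait 12 and 1 at bait 7, and the largest differences were next to the break. On the forward side of bait 12, chr12:13000730-13100729, counted from 10 kb outward, held 2385 and 1134 junctions in NPC APH and 2381 and 4481 in ESC APH, although the NPC pools had more junctions beyond 10 kb. Its log2 difference was -3.79 ± 0.32 under APH (edgeR adjusted p = 4.15e-24) and -2.80 ± 0.31 under DMSO. On the forward side of bait 7, chr7:80351956-80451955 had -3.22 under APH and -2.03 under DMSO. Both kept this direction under every scaling tried. The rear bin of bait 12 next to the break and the forward bins at 100 to 200 and 400 to 500 kb were also called lower under APH, by -1.71, -1.46 and -1.17, but with the window total as library size their differences were 0.32, 0.56 and 0.84, so their direction depends on the scaling.

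Few window bins differed between APH and DMSO. In ESC 4 were called, 2 higher and 2 lower, or 2.90% beside 4.48% over the genome (3.2% higher and 1.28% lower). Both higher bins lie in the forward stretch of bait 12. The bin chr12:13400730-13500729 held 34 and 43 junctions under APH and 2 and 5 under DMSO, a log2 difference of 2.83 ± 0.60 (SE, edgeR adjusted p = 0.000513). The bin chr12:13200730-13300729, which holds the start regions of Ddx1 and Nbas, held 42 and 74 under APH and 5 and 23 under DMSO, a difference of 1.48 ± 0.44 (adjusted p = 0.0285). Both remained called without the libraries that share joints. The lower bins, chr12:10600729-10700728 with -2.46 and chr12:12600729-12700728 with -1.84, rested on few junctions. Without those libraries they had -2.13 and -1.45 and were not called (adjusted p = 0.102 and 0.209).

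In NPC 2 window bins were called for APH, none of them higher, or 1.45% beside 1.92% over the genome (0.213% higher and 1.71% lower). These were chr12:13000730-13100729 with -1.47 and chr12:13100730-13200729 with -1.13, both on the forward side of bait 12 next to the break, and without the libraries that share joints they had -1.13 and -0.80 and were not called (adjusted p = 0.186 and 0.235). With the total beyond 10 kb as library size and no TMM they had -0.17 and 0.17 (adjusted p = 0.7101 and 0.832), so the direction of the second depends on the scaling. TMM factors spanned 0.480 to 2.32, and with that total 20 window bins were called in NPC, all higher under APH. The choice moves the median over all bins from -0.05 to 0.42 (log2), so the calls are relative to it. Without experiments A and D of NPC line 2 bait 15 DMSO, 14 were called, 12 of them higher. A difference between the APH effects in NPC and ESC was called in 0 window bins by edgeR and 0 by DESeq2, with 10 at an unadjusted p under 0.05, beside 0.426% called over the genome. The 3 with the smallest p, at 100 to 200, 200 to 300 and 600 to 700 kb on the forward side of bait 12, had differences of -1.60, -1.74 and -3.38 and did not pass (edgeR adjusted p = 0.0611, 0.124 and 0.124).

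At the scale of 1 kb, 3 sites held at least 20 junctions at 10 or more times the mean of their flanks. They were picked by that ratio, which is given as a description. The site chr7:81358956-81359955, at 907 kb on the rear side of bait 7, held 205 junctions, 77.1 times its flanks. They were 16 and 22 in ESC DMSO (lines 1 and 2), 12 and 23 in ESC APH, 8 and 6 in NPC DMSO and 96 and 22 in NPC APH, so it occurred in all 8 pools, and 194 of the 205 were on the minus strand. They made up 152 distinct joints. The site chr7:78933956-78934955, at 1518 kb on the forward side, held 20 junctions (55.6 times its flanks), 17 of them on the plus strand and 19 distinct. The site chr15:84832129-84833128, at 2016 kb on the rear side of bait 15, held 41 junctions (31.8 times), all in NPC, with 7 and 11 under DMSO and 13 and 10 under APH. Its joints numbered 24, of which 9 were in a single pool.

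Sequence at the 3 sites is shown because the pair on chromosome 7 hold the same repeat, in capitals, and the site on chromosome 15 does not. They are 90 bases from 1 read each, at chr7:81358930-81359019 on the minus strand, chr7:78934402-78934491 and chr15:84832455-84832544 on the plus strand.
Site at 907 kb, bait 7: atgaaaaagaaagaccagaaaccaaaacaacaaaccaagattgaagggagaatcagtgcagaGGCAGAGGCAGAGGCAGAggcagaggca
Site at 1518 kb, bait 7: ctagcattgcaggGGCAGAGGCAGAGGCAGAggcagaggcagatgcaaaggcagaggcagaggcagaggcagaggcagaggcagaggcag
Site at 2016 kb, bait 15: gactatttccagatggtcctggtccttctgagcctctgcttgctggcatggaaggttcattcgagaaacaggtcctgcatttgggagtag
The 18-letter word GGCAGAGGCAGAGGCAGA, searched on both strands of the prey, was in 38 of 205 reads at the first site, 8 of 20 at the second and 0 of 41 at the third. Over the whole windows it was in 191 reads of bait 7, 1 of bait 12 and 0 of bait 15. Most reads with it were at 17 kb on the rear side of bait 7, where 130 of 1559 junctions in 1 kb held it, so the word was frequent near that bait as well as at the narrow sites.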

How the data were processed

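Each deposited table lists 1 junction read per row, and counts of these rows, which carry no normalization, are the values used here, per the file headers. Bowtie2 and mm9 are named in the submitters' processing notes, and the junction caller is not given in the sources used here. Rows with filter entries other than 0 occurred only in NPC line 2 bait 15 APH and were kept. They were 33961 of its 156913 junctions and 1388 of its 13452 window junctions. The values of this pool, and its difference from DMSO, thus rest in part on rows of a kind that the other tables lack. Rows that repeat a read name within a table were dropped, namely 10907 rows of NPC line 2 bait 12 APH, leaving its experiment B with none, and 7702 of ESC line 1 bait 7 APH. Of the 104 experiments, 87 had a letter in the tables that matches the labels and holds junctions. The DMSO pools of ESC with bait 7 in both lines and the APH pool of NPC line 2 with bait 15 were used whole because their letters did not match.

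The members and lists were chosen with earlier results of these data known. Measures were compared over 6 pairs of pools of the same line and bait, which share the cell line and the break, by exact sign-flip tests (scipy 1.17.1). Bins of 100 kb were tested with edgeR 4.0.16 in R 4.3.3 (glmQLFit, glmQLFTest, TMM, 4 conditions plus line, filterByExpr with a minimum count of 10), which leaves 3 residual degrees of freedom per bait. Up to 5 window bins per comparison and direction are named, by smallest adjusted p among those that passed with the same sign in both lines, or the 3 with the smallest p where none passed. On simulated counts with known changes, this recovered 0 to 40.0% of 2-fold and 5.26 to 80.0% of 4-fold changes, depending on bait and comparison. Tables were handled with pandas 2.3.3 and numpy 2.4.6 in Python 3.11.15 and drawn with matplotlib 3.10.9. Alternatives covered the limits of the window, bin size, scaling, filter, DESeq2 1.42.0, positions counted once, single experiments, pairing, filter entries and each library or pair left out. Alternatives added after seeing the data were the side relative to the bait read, the total beyond 10 kb as library size, and leaving out libraries that share joints. No mm9 genome or annotation was used here.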

Additional observations from a re-analysis of the deposited data

Results flagged for a closer look

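Among 104 sets of 4 experiments compared within a pool, 8 had 1 experiment whose gap to the nearest of the others was large against the range (Dixon's 95% limit), and chance flags about 1 in 20 groups. The window share of ESC line 2 bait 7 APH experiment A was 26.8%, against 38.5 to 39.0% in the others, and that of NPC line 1 bait 15 APH experiment A was 21.9%, against 18.4 to 18.9%. The window share of ESC line 2 bait 12 APH experiment D was 43.4%, against 42.8% in the others. The median distance of NPC line 1 bait 12 DMSO experiment D was 182 kb, against 29.5 to 35.7 kb. It was 48.8 kb in ESC line 2 bait 15 DMSO experiment A, which shares joints with NPC, against 26.8 to 28.8 kb, and 39.3 kb in ESC line 1 bait 15 DMSO experiment B, against 24.7 to 25.1 kb. Rear opposite-strand joints made up 32.9% in ESC line 1 bait 15 APH experiment D, against 27.7 to 28.6%. The bait-strand share of NPC line 2 bait 12 DMSO experiment C was 58.4%, against 55.6 to 55.9%.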

How the results depend on the processing

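Of 146 values of window share, decay, side and strand under other settings, 143 stayed on their side of the threshold and 2 changed sign: with all junctions as denominator, the window share of NPC against ESC was 0.107 points under DMSO and 5.69 under APH. Without pairing by line and bait, 3 passed the adjusted threshold with values unchanged, the window share for APH in NPC (9.05 points) and the bait-strand share of NPC against ESC (-18.8 and -24.6 points). Of 120 values with 1 pair left out, 2 changed sign, and none could pass, since 5 pairs allow no p below 0.0625. Counts of called window bins moved more. In the order APH in ESC, APH in NPC, their difference, NPC against ESC under DMSO and under APH, 4, 2, 0, 24 and 46 were called. With 50 kb bins these were 7, 6, 4, 56 and 76, and with the window total as library size 2, 1, 2, 49 and 73. With 250 kb bins, ESC had 1, NPC 4 and the DMSO comparison 10. For APH in ESC the count was 0 without a filter, 2 by DESeq2, 2 with each position counted once and 1 without the line term. For APH in NPC it was 20 without TMM, 14 without the line 2 experiments A and D, 0 without the libraries that share joints, 1 by DESeq2, 6 with each position counted once and 0 without the line term. With 1 pool left out the counts ranged from 0 to 5, 0 to 10, 0 to 1, 8 to 31 and 30 to 61. The cause of these changes was not tested.

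With single experiments in place of pools and no replicate block, APH in NPC had 13, the difference 8 and NPC against ESC under APH 24 called bins. With the letter as a replicate block they had 15, 7 and 24. Whether the letters pair the experiments is not known. Deviations of same-lettered APH and DMSO experiments correlated at -0.995 to 0.817 over the window bins with enough junctions, in 13 of 35 pairs above 0.1. Of the APH experiments, 12 correlated best with their own letter. Both extremes are from ESC line 1, with 4 bins (bait 15) and 6 bins (bait 12), too few to decide it.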
